A study of Mus musculus with 2 samples.

Results

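The genes of the large (60S) ribosomal subunit proteins were taken as every row whose symbol is *Rpl* followed by a number, with an optional letter suffix, together with *Rplp0*, *Rplp1* and *Rplp2*, and with rows named as pseudogenes (-ps) left out. This gave 54 genes of the 54146 rows in the files. They were measured by inDrop single-cell RNA-seq, which captures single cells in droplets and gives each transcript end that is caught a unique molecular identifier (UMI), in 1 library of wild-type and 1 library of *Lin28a* knockout mouse embryonic stem (ES) cells. LIN28A is an RNA-binding protein of pluripotent cells that blocks let-7 maturation, and the study compared the genotypes to ask whether its nucleolar and ribosomal roles bear on the balance between ES cells and 2-cell-like cells, a rare state in ES cultures that expresses endogenous retroviruses and, per the study, little ribosomal protein mRNA. Both lines came from the inner cell mass, were untreated apart from the knockout, and grew for 2 days in LIF/2i medium on gelatin with mouse embryonic fibroblast (MEF) feeder cells. Per the study's methods, the knockout was made with CRISPR/Cas9 against the second exon of *Lin28a*, and each library stands for 1 clone, so clone, culture and library cannot be told apart from genotype.

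A eukaryotic ribosome is built from a small subunit, which reads the mRNA, and a large subunit, which holds the peptidyl transferase centre, the tunnel through which the new chain leaves and a stalk of acidic P proteins that recruits the GTPase factors of elongation. The large subunit proteins are needed in equal amounts, save for the P proteins, and their mRNAs are short, abundant and begin with a 5′ terminal oligopyrimidine (TOP) tract, a C followed by a run of pyrimidines through which mTORC1 and LARP1 set their translation. Several have expressed gene copies with their own expression, such as *Rpl10l*, an intronless copy of X-linked *Rpl10* known from the male germ line, and nearly all have many processed pseudogenes in the mouse genome.

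The start sites of the members show this tract to a varying degree in the annotation. RefSeq start windows (build GRCm38.p6) were at hand for 41 members, and 7 of them (17.1%) had a C at the annotated start followed by at least 4 C or T, against 2.49% of the 27025 genes with a window. With the C allowed within 10 bases of the start, 23 members (56.1%) held such a tract, against 30.8% of all genes. The windows below run from 15 bases before to 15 bases from the annotated start, on the strand of the gene and 5′ to 3′, and capitals mark the tract. They are shown for the 7 members with the tract at the start and for 3 members on which the comparison of the libraries turned and in whose windows no C within 10 bases of the start is followed by 4 or more C or T. The window of *Rpl4* holds a longer run of C and T that begins further upstream.
Rpl14 chr9:120571502-120571531 (plus strand): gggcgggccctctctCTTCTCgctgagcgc
Rpl15 chr14:18270972-18271001 (minus strand): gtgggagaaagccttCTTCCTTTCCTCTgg
Rpl28 chr7:4792950-4792979 (plus strand): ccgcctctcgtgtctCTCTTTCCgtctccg
Rpl32l chr10:20208424-20208453 (plus strand): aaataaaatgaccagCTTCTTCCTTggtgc
Rpl35 chr2:39005117-39005146 (minus strand): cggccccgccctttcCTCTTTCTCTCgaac
Rpl38 chr11:114668565-114668594 (plus strand): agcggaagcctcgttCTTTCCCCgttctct
Rplp2 chr7:141447636-141447665 (plus strand): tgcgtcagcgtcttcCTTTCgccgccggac
Rpl10 chrX:74270801-74270830 (plus strand): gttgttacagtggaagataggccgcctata
Rpl4 chr9:64173372-64173401 (plus strand): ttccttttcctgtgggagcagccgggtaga
Rpl41 chr10:128549154-128549183 (minus strand): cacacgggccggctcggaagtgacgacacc
The starts are annotated, not measured in these libraries, and a window without a marked tract says only that none begins within 10 bases of the annotated start. Over the whole windows of 250 bases before to 50 bases after the start, the letters CCGGAAG, found on either strand, occurred in 14 members (34.1%) and in 9.12% of all genes. AAGATGG occurred in 4 members (9.76% against 6.48%) and TATAAA in 5 (12.2% against 14.2%).

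The authors deposited UMI counts per gene and barcode without normalization. Barcodes with at least 500 UMIs and at most 20% mitochondrial UMIs were kept, and 1856 wild-type and 1622 knockout cells met these limits, at median depths of 6140 and 5063.5 UMIs. Values are CPM, the UMIs of a gene per 1000000 kept UMIs of the library, with no length scaling since each UMI stands for a captured transcript end. Ratios are knockout over wild-type. With 1 library per genotype there was no replicate check and no test was made, and intervals at 95% are exact and cover counting error only. *Lin28a*, which checks the labels, was at 107 CPM (101 to 113) against 36.6 CPM (32.8 to 40.7) after knockout, a ratio of 0.343. The 9 ES cell markers, led by *Dppa5a* and *Pou5f1*, were present in both libraries. Barcodes carry serial names in both files, so whether the libraries share cell barcodes could not be counted.

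Summed over the 54 genes, large subunit transcripts were slightly more abundant in the knockout library. They made up 5.91% (5.90 to 5.92) of wild-type UMIs, 687959 in all, and 6.42% (6.40 to 6.43) of knockout UMIs, 599275 in all, a ratio of 1.09 (1.08 to 1.09). The 33 small subunit genes stood beside them at 4.73% and 5.15%, with a ratio of 1.09 (1.08 to 1.09). In single cells the large subunit share had a median of 5.35% in the wild-type library, with quartiles of 4.67% and 6.44%, and of 5.98% in the knockout library, with quartiles of 4.74% and 7.93%. The knockout cells thus reached further in both directions, from 1.46% at the 5th percentile to 9.96% at the 95th, against 2.99% and 9.43% in wild-type cells. More of them were shallow, with 512 of 1622 at 500 to 2000 UMIs against 214 of 1856 wild-type cells. In this band the summed share was 4.46% and 4.13%. The part of depth in the wider spread was not tested.

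Other genes tied to ribosome production did not share this ratio. A list of 38 genes was drawn up for large subunit assembly, with nucleolar proteins and GTPases. It also holds factors with wider roles in rRNA synthesis and modification, such as *Ncl* and *Fbl*. Its genes made up 1.07% of wild-type and 0.797% of knockout UMIs, a ratio of 0.742 (0.735 to 0.749). Of these, 25 were below and 13 above a ratio of 1, with a median of 0.880, where 47.7% of all genes were below 1. A ratio of at most 4/5 was reached by 11 of the 38, against 20.8% of all genes. The lowest were *Gnl3* (nucleostemin) at 454 and 263 CPM and *Ncl* (nucleolin) at 2540 and 1555 CPM, while *Bop1* at 48.8 and 62.6 CPM and *Nle1* at 26.2 and 33.0 CPM were the highest. *Ncl* alone held 29558 of the 125119 wild-type UMIs of this list and 14522 of its 74487 knockout UMIs. No ratio of this list within bands of cell depth is given. The 17 other mRNAs known to carry a TOP tract, such as elongation and initiation factors, summed to 2.41% in both libraries, with 8 above and 9 below a ratio of 1, from *Nap1l1* at 0.689 to *Eef2* at 1.38. In the small subunit 26 of 33 genes were above 1, against 52.3% of all genes, from *Rps21* at 0.896 to *Rps20* at 1.39.

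Single members differed in level by more than 4 orders of magnitude, and their order was nearly the same in both libraries. *Rplp1*, a P stalk protein present in more than 1 copy per ribosome, led with 4786 CPM (4747 to 4826) in wild-type and 4993 CPM (4947 to 5038) in knockout cells. *Rpl27a* followed at 2925 and 3204 CPM, *Rpl23* at 2574 and 2492 CPM, *Rpl37* at 2173 and 2090.1 CPM and *Rpl18* at 2050 and 2141 CPM. At the other end stood the muscle paralog *Rpl3l*, with 4 UMIs in each library, and *Rpl39l*, a germ line paralog, with 120 and 98 UMIs. Over the 53 members with at least 200 UMIs in the libraries together, the log2 CPM of the libraries had a Pearson's r of 0.993 and a Spearman's rho of 0.978. This is a description across genes that share a library, and *Rpl3l* was left out by the minimum.

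**Figure D1:**
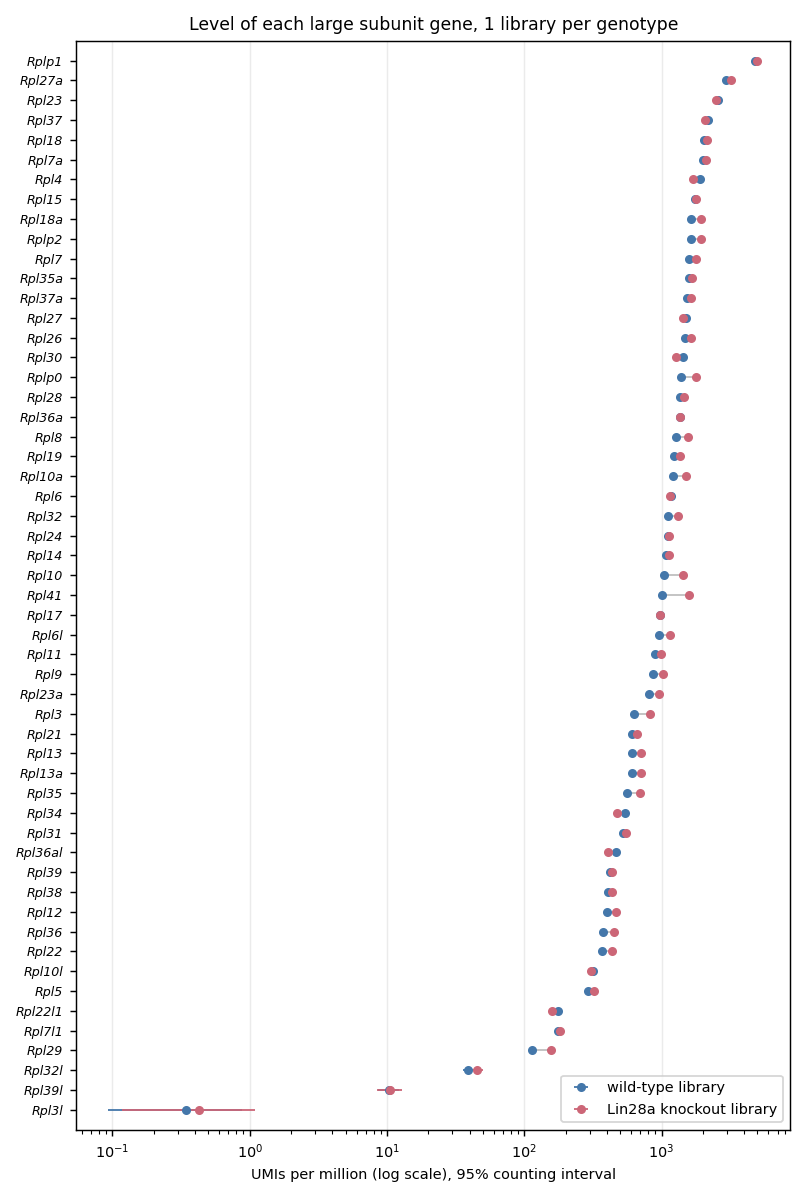
Level of each of the 54 large subunit genes in CPM on a log axis, sorted by the wild-type level, with the wild-type library in blue, the *Lin28a* knockout library in red and bars for the 95% counting interval. The order runs from *Rplp1* at 4786 CPM to *Rpl3l* at 4 UMIs in each library, and the widest gap between the points of an abundant gene is that of *Rpl41*.

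Most members were somewhat higher in the knockout library, and 1 stood apart. Of the 53 members, 42 were above a ratio of 1 and 11 below, with a median of 1.08. Over the 9835 genes with at least 200 UMIs the median was 1.01, and 52.3% were above 1. A ratio of at least 1.5 was reached by 1 member, *Rpl41*, and by 6.49% of all genes, and a ratio of at most 1/1.5 by 0 members and 8.45% of all genes. At a fold of 5/4, 6 members were higher (*Rpl41*, *Rpl10*, *Rpl29*, *Rpl3*, *Rplp0* and *Rpl10a*), against 19.7% of all genes, and 0 members were lower, against 20.8% of all genes. Among genes with 2000 UMIs or more, the SD of the log2 ratio was 0.18 over 51 members and 0.38 over all 2015 genes. The narrow spread was not particular to the large subunit. Among genes with at least 200 UMIs the SD was 0.15 over the 33 small subunit genes. At this limit it was 0.17 over the 53 members and 0.44 over all 9835 genes.

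*Rpl41* (ENSMUSG00000093674.7, chr10:128548114-128549305, minus strand, 4 exons) encodes the smallest ribosomal protein, a short basic peptide at the subunit interface. Its level was 1004 CPM (986 to 1022) in wild-type and 1580.4 CPM (1555 to 1606) in knockout cells, a ratio of 1.57 (1.54 to 1.61). The intervals lay far apart. *Rpl10* (chrX:74270812-74273135, plus strand), whose protein is among the last to join the subunit, near the catalytic centre, was at 1034 and 1426 CPM, a ratio of 1.38 (1.34 to 1.41). *Rpl29* was at 114 and 155 CPM, a ratio of 1.37 (1.27 to 1.47), *Rpl3* at 627 and 831 CPM, a ratio of 1.33 (1.28 to 1.37), and *Rplp0* at 1394 and 1779 CPM, a ratio of 1.277 (1.249 to 1.305). For *Rpl29*, 87.1% of the UMIs of the gene and its near copies lay in the copies, so its value rests on a small part of that family.

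The 5 members with the lowest ratios lay between 0.873 and 0.898, all within the 5/4-fold limit. *Rpl4* (chr9:64173375-64178666, plus strand, 10 exons), which lines the exit tunnel and whose introns hold 5 annotated snoRNAs, was at 1916 CPM (1891 to 1941) and 1685 CPM (1658 to 1711), a ratio of 0.879 (0.862 to 0.898). It has no near copy in the files. *Rpl36al*, the autosomal copy of *Rpl36a*, was at 464 and 406 CPM, *Rpl34* at 542 and 476 CPM, *Rpl30* at 1430 and 1277 CPM and *Rpl22l1* at 176 and 158 CPM. The direction for *Rpl30* turned when its near copies were counted with it, from a ratio of 0.893 to 1.02.

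**Figure D2:**
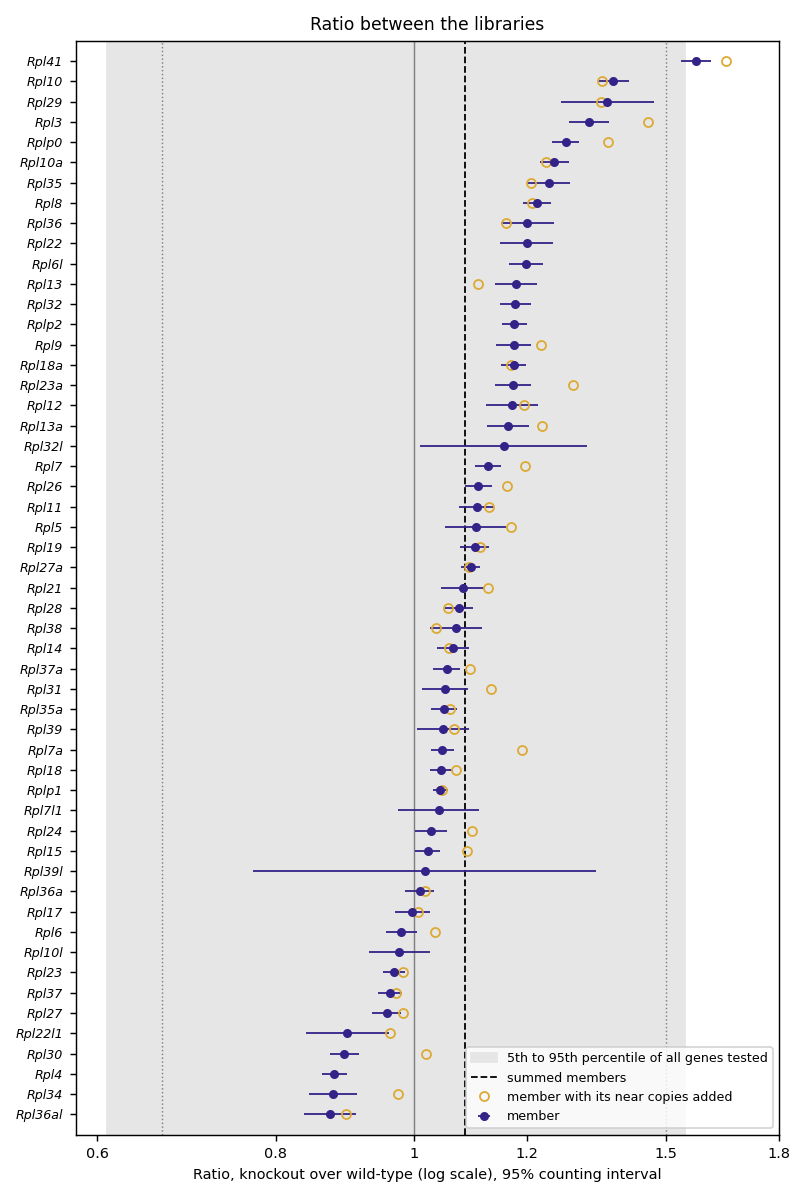
Ratio of knockout to wild-type CPM on a log axis for the 53 large subunit genes with at least 200 UMIs, with 95% counting intervals (filled) and with near copies added (open circles). The dashed line is the summed members at 1.09, dotted lines mark 1.5 and 1/1.5, and the grey band runs from the 5th to the 95th percentile of 9835 genes. *Rpl41* alone lies past 1.5.

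Of the lists by role in the ribosome, which were chosen with earlier results known, that of the proteins near the catalytic centre had the highest ratio. Of its 3 genes, *Rpl10* and *Rpl3* are among the 5 members with the largest ratios described above. *Rpl3*, *Rpl8* and *Rpl10* together made up 0.293% of wild-type and 0.381% of knockout UMIs, a ratio of 1.30 (1.28 to 1.32), and *Rpl8* alone was at 1272 and 1550.2 CPM, a ratio of 1.22. The P stalk summed to 0.783% and 0.871%, a ratio of 1.11 (1.10 to 1.12), but its genes were not alike. The anchor *Rplp0* had a ratio of 1.28, *Rplp2*, at 1649 and 1939 CPM, a ratio of 1.18, and *Rplp1* a ratio of 1.04 (1.03 to 1.06), which fell on either side of 1 over other settings. *Rplp0*, on whose protein the P1 and P2 proteins sit as pairs, made up 17.8% (17.6 to 18.1) of the stalk's UMIs in wild-type and 20.4% (20.2 to 20.7) in knockout cells. Above 10000 UMIs per cell these values were 19.0% (18.5 to 19.6) and 19.4% (18.9 to 19.8), where the intervals overlapped.

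The genes around the tunnel exit, where chaperones and the signal recognition particle dock, summed to 0.504% and 0.565%, a ratio of 1.12 (1.11 to 1.13). The list holds 6 genes and leaves out *Rpl17*, whose protein is also at the exit and which was at 980 and 977 CPM, a ratio of 0.997 (0.970 to 1.025). The 6 genes had *Rpl23a* at 1.17, *Rpl26* at 1.11, *Rpl19* at 1.10, *Rpl31* at 1.05 and *Rpl39* at 1.05, and *Rpl35* at 561 and 698 CPM, a ratio of 1.24 (1.20 to 1.29). *Rpl5* and *Rpl11* form the 5S RNP with 5S rRNA, which binds MDM2 when ribosome assembly is disturbed and so stabilizes p53. They summed to 0.119% and 0.132%, a ratio of 1.11 (1.08 to 1.13), with *Rpl11* at 901 and 996 CPM and *Rpl5* at 292 and 322 CPM. In cells above 10000 UMIs the ratios were 0.947 for *Rpl11* and 0.981 for *Rpl5*. The level of *Rpl5* may not stand for transcript numbers, as described below. *Rpl23* and *Rpl26*, whose proteins also bind MDM2, had ratios of 0.968 (0.952 to 0.985), on either side of 1 over other settings, and 1.11 (1.09 to 1.13).

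The difference between the libraries changed with the depth of the cells. In cells of 500 to 2000 UMIs, 214 wild-type and 512 knockout cells, the summed members were at 4.13% and 4.46% of UMIs, a ratio of 1.08 (1.05 to 1.11). The ratio was 1.17 (1.16 to 1.19) from 2000 to 5000 UMIs and 1.18 (1.17 to 1.18) from 5000 to 10000 UMIs, where 1042 wild-type and 507 knockout cells lay. Above 10000 UMIs the share was 6.11% in 192 wild-type and 6.08% in 314 knockout cells, a ratio of 0.995 (0.989 to 1.002). The deepest cells therefore showed no higher share in the knockout library. In order of depth, 33 of 52, 39 of 53, 47 of 53 and 28 of 53 members were above a ratio of 1. Of all genes tested with a UMI in both libraries, 53.7%, 49.8%, 48.9% and 52.0% were above 1 in the same bands, so that the members' count in the deepest band lay near the share of all genes.

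Each member's side of the summed members within a band was set against its side over all cells. It was the same in all 4 bands for 23 of 53 members and in 3 for 22. The value over all cells contains every band, so part of this agreement is fixed in advance, and no such count over all genes is given. *Rpl39l* had no wild-type UMI in the first band and could not reach 4. *Rpl41* stayed above 1 in all bands, with ratios of 1.56, 1.94, 1.81 and 1.245, as did *Rpl10* with 1.54, 1.45, 1.42 and 1.35. *Rplp0*, at 1.16, 1.60 and 1.48 in the first 3 bands, was at 0.975 in the deepest cells. *Rpl4* was below 1 in all bands, at 0.961, 0.869, 0.909 and 0.860, and *Rpl30* likewise, from 0.903 to 0.937. *Rpl22l1* went from 0.797, 0.630 and 0.833 to 1.11 in the deepest cells, so its low pooled value did not hold there.

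**Figure D3:**
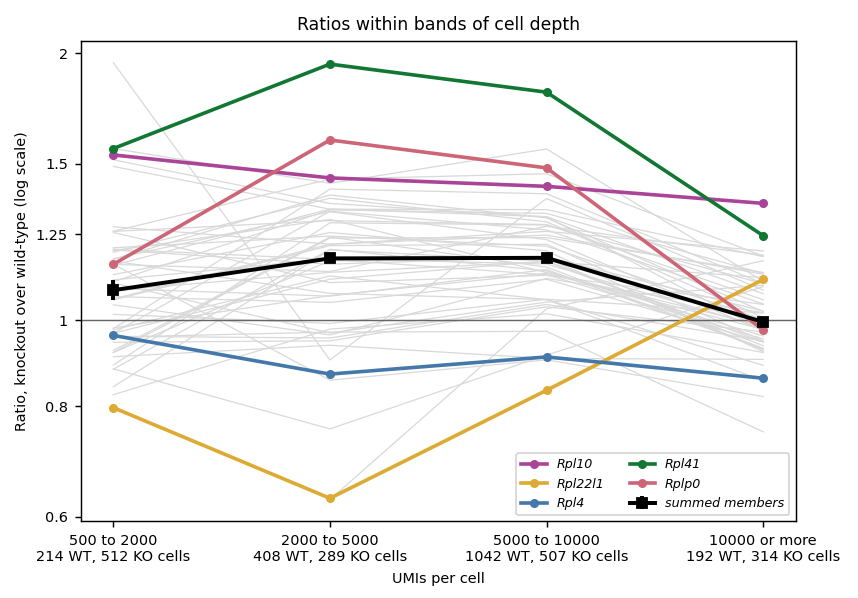
Ratio of knockout to wild-type CPM on a log axis within 4 bands of UMIs per cell, with 1 line per large subunit gene in grey, 5 genes in colour and the summed members in black with 95% counting intervals. The black line falls from 1.18 at 5000 to 10000 UMIs to 0.995 above 10000 UMIs, and *Rpl10* and *Rpl41* stay above 1 throughout.

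The 8 paralogs of ribosomal protein genes together made up 0.214% of wild-type and 0.225% of knockout UMIs, a ratio of 1.06 (1.04 to 1.07). This sum was carried by *Rpl6l*, with 11120 and 10688 UMIs, and the direction turned without it, to 0.118% and 0.111%, a ratio of 0.940 (0.916 to 0.965) over 7 genes. *Rpl10l* (chr12:66283379-66284401, minus strand), which has 1 exon and shares no 30-base word with the transcripts of *Rpl10*, was at 315 CPM (305 to 326) in wild-type and 308 CPM (297 to 319) in knockout cells. As *Rpl10* itself was higher in the knockout, *Rpl10l* made up 23.4% (22.7 to 24.0) of the pair's UMIs in wild-type and 17.8% (17.2 to 18.4) in knockout cells. This share was lower in the knockout within every band of depth, at 20.3% and 12.7%, 22.8% and 13.3%, 23.3% and 16.4%, and 24.0% and 20.3% from the shallowest to the deepest cells, although the intervals of the shallowest band, 14.2% to 27.5% and 10.1% to 15.8%, overlapped. *Rpl10* also has 9 near copies, which held 56.4% and 55.6% of the UMIs of its family. Counted with *Rpl10*, they brought the part of *Rpl10l* to 11.7% (11.4 to 12.1) in wild-type and 8.75% (8.45 to 9.06) in knockout cells, so the size of this share depends on the copies while its order between the libraries did not turn.

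*Rpl22l1* and *Rpl22*, whose proteins can stand in for each other in the subunit, lay on opposite sides of a ratio of 1. *Rpl22* was at 366 and 439 CPM, a ratio of 1.199 (1.148 to 1.252), and *Rpl22l1* at 176 and 158 CPM, a ratio of 0.898 (0.840 to 0.961). The paralog thus made up 32.5% (31.4 to 33.7) of the pair in wild-type and 26.5% (25.4 to 27.7) in knockout cells, and 31.2% (28.6 to 33.8) and 29.8% (28.0 to 31.6) in the deepest cells, where the intervals overlapped. *Rpl36al* made up 25.5% (24.9 to 26.1) of its pair with *Rpl36a* in wild-type and 22.8% (22.2 to 23.5) in knockout cells. The order turned in the shallowest cells, at 26.1% (20.2 to 32.6) and 28.7% (24.95 to 32.6), where the ratio of *Rpl36al* itself was 1.16. *Rpl36al* overlaps a readthrough gene, *Gm49383*, on the same strand, with 6054 UMIs of its own over all wild-type barcodes, and the files mark 320 of its UMIs as ambiguous, so this level is uncertain. *Rpl24*, *Rpl13a* and *Rpl13* likewise share a strand with readthrough genes, *Gm28037*, *Gm45713* and *Gm20388*, of 7533, 3286 and 571 UMIs over all wild-type barcodes. *Rpl7l1*, known as a factor of subunit assembly more than as a ribosomal protein, was at 175 and 182 CPM and made up 9.92% and 9.23% of its pair with *Rpl7*.

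*Rpl6l* and *Rpl32l* are annotated as processed pseudogenes with 1 exon in GENCODE M21, in spite of their names. Of the 30-base words of *Rpl6l*, 72.8% also occur in transcripts of *Rpl6*, and 37.0% of those of *Rpl32l* occur in *Rpl32*, so UMIs of these genes and of their partners may be exchanged. *Rpl6l* was nearly as abundant as its partner, at 955 and 1144 CPM against 1180.4 and 1156 CPM for *Rpl6*, and made up 44.7% (44.1 to 45.4) and 49.7% (49.1 to 50.4) of the pair. *Rpl32l*, inside *Map7* on the same strand, was at 39.1 and 45.2 CPM. *Rpl39l* and *Rpl3l* made up 2.40% and 0.0548% of their pairs in the wild-type library.

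Near-identical copies of 44 of the 54 members stand in the files as rows of their own. A copy was any other gene, snoRNAs and miRNAs left out, with at least 50% of its 30-base words in the transcripts of a member. There were 213 such genes, 206 of them of a pseudogene type, and together they held 3.78% of wild-type and 4.51% of knockout UMIs, a ratio of 1.19 (1.19 to 1.20). The copies were thus at a higher ratio than the members, and their part of the UMIs of the families was 39.0% and 41.3%. In 17 members the copies held at least 50% of the family in the wild-type library. Among them were *Rpl29*, *Rpl5* (80.5%), *Rpl12* (72.9%), *Rpl7a* (69.3%), *Rpl9* (68.2%), *Rpl3* (63.4%), *Rplp0* (58.7%) and *Rpl10* (56.4%). *Rplp2*, *Rpl4*, *Rpl22* and *Rpl32* had none. *Gm8730*, a pseudogene of *Rplp0* on chr8, was at 1478 and 2050.5 CPM, above *Rplp0* itself, and *Rpl7a-ps11* at 1064 and 1395 CPM. With copies added the ratio of *Rpl41* was 1.65, of *Rpl3* 1.46, of *Rplp0* 1.37 and of *Rpl7a* 1.19 in place of 1.05. How UMIs shared by a gene and its copies were assigned is not given in the sources used here, so levels of these members may lack transcripts that were counted on a copy.

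*Rpl5* and *Rpl12* showed an uncommon pattern of counts in single cells, which was followed up after the values were seen. In the 1042 wild-type cells of 5000 to 10000 UMIs, *Rpl5* had a mean of 1.99 UMIs, yet only 10 cells had 0 UMIs and 542 had exactly 1. Counting alone, at an equal share of the member UMIs in every cell, gives 172 cells with 0. *Rpl12*, with a mean of 2.82 UMIs, was at 0 in 7 cells where counting gives 87.5. In the 507 knockout cells of this depth, *Rpl5* was at 0 in 3 cells, where counting gives 61.2, and *Rpl12* in 1 cell, where it gives 23.6. *Rpl22*, which has no near copy and a mean of 2.62 UMIs, was at 0 in 98 wild-type cells, where counting gives 103. Smaller deficits were next in size for wild-type members where counting gives at least 5 cells. *Rpl3* was at 0 in 8 cells where counting gives 25.1, *Rpl23a* in 4 where it gives 9.76 and *Rpl9* in 3 where it gives 7.52. In knockout cells counting gives fewer than 5 for each of these 3 genes. *Rpl31* followed, at 0 in 24 wild-type cells where counting gives 42.9 and in 8 knockout cells where it gives 13.5.

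*Rpl5* and *Rpl12* each have a copy in which all the 30-base words are shared. Near copies held 80.5% of the wild-type UMIs of the *Rpl5* family and 72.9% of those of the *Rpl12* family. *Rpl3*, *Rpl23a*, *Rpl9* and *Rpl31*, with smaller deficits, had 63.4%, 60.6%, 68.2% and 57.8% in copies. *Rpl31* has a copy that shares all its words as well. In some other members with many UMIs in copies, or with such a copy, the zeros were near or above the number from counting. *Rpl29*, with 87.1% in copies, was at 0 in 473 wild-type cells, where counting gives 492, and *Rpl34*, with 63.1%, in 51, where it gives 41.9. *Rpl38* and *Rpl13*, which also have a copy that shares all its words, were at 0 in 96 cells, where counting gives 85.1, and in 32, where it gives 29.0. In others the zeros were fewer, on small numbers. *Rpl17* and *Rpl10*, with 65.8% and 56.4% in copies, were at 0 in 0 and 1 wild-type cells, where counting gives 4.65 and 3.18. *Gm15500*, an *Rpl5* copy on chr7, had a mean of 7.10 UMIs in the same wild-type cells and held at least as many UMIs as *Rpl5* in 1028 of 1042 cells. It was at 0 in 11 cells, and in 9 of these *Rpl5* was at 0 as well. *Gm10275*, an *Rpl12* copy on chr10, had a mean of 7.16 UMIs, and the 7 cells without *Rpl12* were also without it. Cells at 0 for *Rpl5* or *Rpl12* were thus mostly at 0 for the copy as well, though the number that counting alone gives was not computed. The levels of *Rpl5* and *Rpl12* may not stand for transcript numbers. The cause was not tested. They were also the 2 members whose CPM was lower in each deeper band of both libraries, *Rpl5* from 539 to 274 CPM and *Rpl12* from 617 to 371 CPM in wild-type cells, while 49 of 51 wild-type members above 50 CPM were higher in the deepest than in the shallowest cells.

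**Figure D4:**
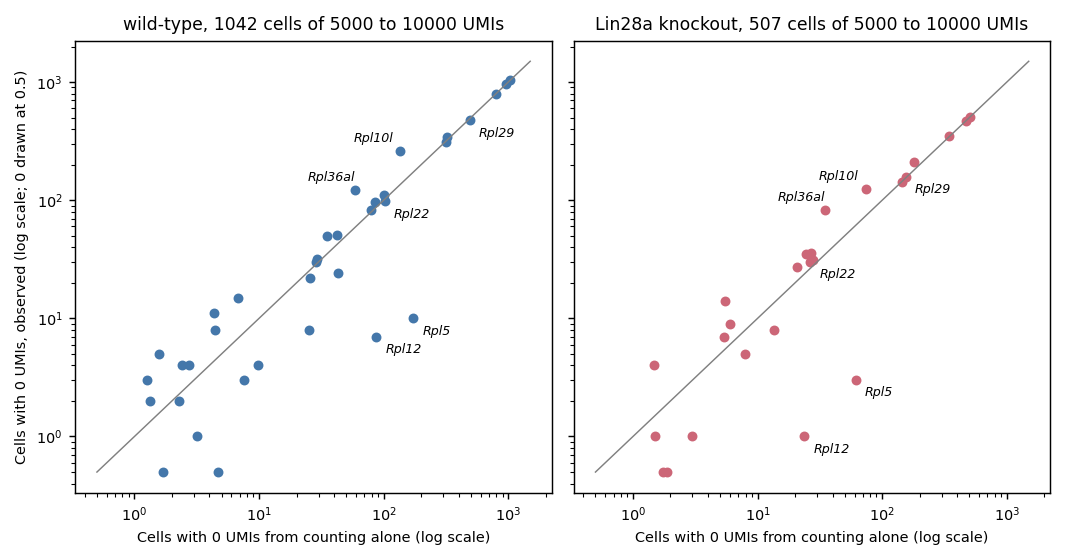
Number of cells with 0 UMIs of a large subunit gene against the number that counting alone gives, on log axes, in wild-type (left) and *Lin28a* knockout (right) cells of 5000 to 10000 UMIs, with 1 point per gene and the line of equality. *Rpl5* and *Rpl12* lie far below the line in both libraries, at 10 and 7 wild-type cells, and *Rpl10l* and *Rpl36al* above it.

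From cell to cell the members' shares of the large subunit transcripts varied somewhat beyond counting error, with no value for other genes beside them. Shares also moved with depth. From the shallowest to the deepest wild-type cells *Rplp1* went from 6.46% to 8.24% of member UMIs and *Rpl5* from 1.30% to 0.449%. The spread of a gene's share over cells, less counting error and given as a coefficient of variation, had a median of 0.165 over 51 wild-type members with at least 0.5 UMIs per cell in both libraries, and of 0.179 over the same members in knockout cells. It was above 0.25 in 8 and 9 members. Ranked by the smaller of a gene's values in the libraries, *Rpl10l*, at 0.756 and 0.669, came first, followed by *Rpl22l1* at 0.540 and 0.746, *Rpl36al* at 0.332 and 0.412, *Rpl39* at 0.309 and 0.328 and *Rplp0* at 0.354 and 0.305. Within a single library the order differed. *Rpl22l1* had the largest value in knockout cells, and in wild-type cells *Rpl7l1* at 0.397 and *Rpl4* at 0.367 came before *Rplp0*, *Rpl36al* and *Rpl39*. *Rpl10l* was without a UMI in 261 of 1042 wild-type cells of 5000 to 10000 UMIs, where counting gives 136, and in 124 of 507 knockout cells, where it gives 73.7. The values of the libraries had a Pearson's r of 0.894 and a Spearman's rho of 0.835 over the 51 members, as a description across genes. *Rpl5* had the lowest value in wild-type cells, at -0.211, less spread than counting alone gives.

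Cells rich in collagen transcripts used the members in other proportions. At least 0.5% of UMIs on *Col1a1*, *Col1a2* and *Col3a1* marked 41 wild-type and 21 knockout cells. The 7 fibroblast markers on the list other than these collagens made up 0.973% and 0.795% of their UMIs, against 0.0276% and 0.0283% in the other cells. Most of this was *Sparc*, with 3437 of 3960 and 810 of 864 marker UMIs, while *Lum* had 11 and 1 and *Dcn* 121 and 7. The 9 ES markers made up 0.0961% and 0.0948%, against 0.467% and 0.471%. These cells thus carried markers of fibroblasts, the type of the feeder cells, along with some ES cell transcripts. Members made up 4.69% of UMIs in collagen-rich and 5.95% in other wild-type cells, a ratio of 0.787 (0.776 to 0.799), and 5.70% and 6.42% in knockout cells, a ratio of 0.887 (0.865 to 0.909).

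*Rpl10l* was almost missing from the collagen-rich cells. It had 10 UMIs in the wild-type ones, 24.6 CPM (11.8 to 45.2) against 326 CPM in the other cells, a ratio of 0.0755 (0.0362 to 0.139), and 2 UMIs in the knockout ones, 18.4 CPM (2.23 to 66.5) against 311 CPM. As a share of its pair with *Rpl10* this was 2.82% (1.36 to 5.12) against 23.8% (23.2 to 24.5) in wild-type and 1.27% (0.155 to 4.53) against 17.9% (17.3 to 18.5) in knockout cells. *Rplp0* stood on the other side, at 2153 against 1366 CPM in wild-type cells, a ratio of 1.58 (1.47 to 1.69), and at 3045 against 1764 CPM in knockout cells, a ratio of 1.73 (1.54 to 1.92). *Rpl29*, for which fewer than 50 UMIs were due and which the counts below leave out, had higher ratios on 78 and 41 UMIs, at 192 against 111 CPM in wild-type cells, a ratio of 1.73 (1.36 to 2.17), and 377 against 153 CPM in knockout cells, a ratio of 2.47 (1.76 to 3.37).

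Among members for which at least 50 UMIs were due in the collagen-rich cells, 1 of 50 in the wild-type library, *Rplp0*, had a ratio of at least 1.5, against 7.60% of the 1578 genes so covered. At most 1/1.5 was reached by 18 members, among them *Rpl10l*, *Rpl7l1*, *Rpl8*, *Rpl14* and *Rpl32*, against 57.4% of all genes. In the knockout library 3 of 41 members, *Rplp0*, *Rpl13a* and *Rpl34*, were at least 1.5, against 5.03% of 318 genes, and 6 were at most 1/1.5, against 46.5%. *Rpl8*, *Rpl14* and *Rpl32* were among the low members of both libraries, *Rpl8* at 619 against 1296 CPM in wild-type and 837 against 1559 CPM in knockout cells. In both libraries a smaller part of the members than of all genes lay at the low limit.

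**Figure D5:**
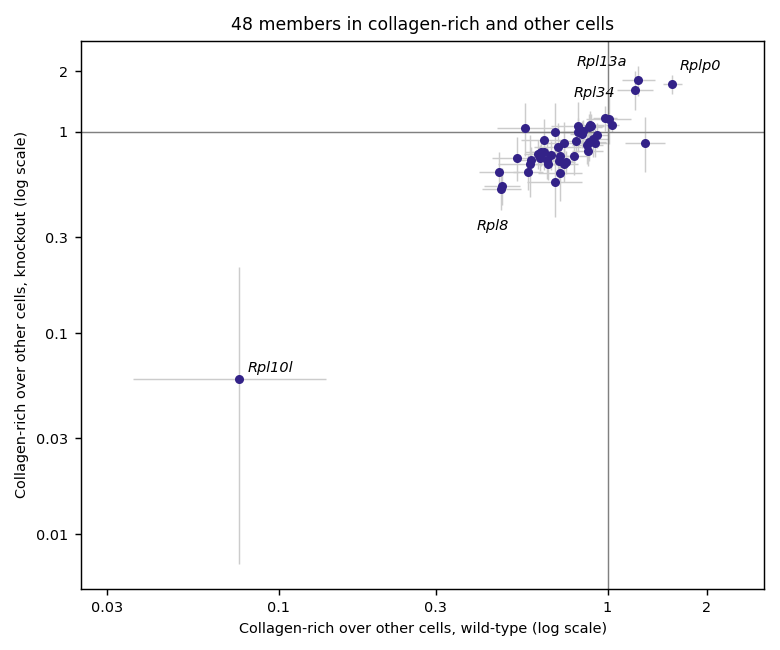
Ratio of CPM in collagen-rich to other cells in the wild-type (x axis) and the *Lin28a* knockout library (y axis), both on log axes, for 48 members with at least 20 UMIs due in the collagen-rich cells of each library, with 95% counting intervals. *Rpl10l* lies apart at 0.0755 in the wild-type library, 34 members are below 1 in both libraries and 5 above 1 in both.

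The study described 2-cell-like cells, marked by endogenous retrovirus expression, as low in ribosomal protein mRNA. Here cells were chosen by a low ribosomal protein share alone, without regard to endogenous retroviruses, so they need not be the same cells. The make-up of their large subunit transcripts can be described, while the low sum itself is what defines them. Under 5% of UMIs on the 54 members and the 33 small subunit genes marked 91 wild-type and 234 knockout cells, at median depths of 830 and 1207 UMIs against 6293 and 6191.5 in the others. Of them, 92.3% and 81.2% had fewer than 2000 UMIs, so the part of depth in the values below was not tested. They held 1315 and 5573 member UMIs in all. *Rplp1* made up 5.70% of these in wild-type and 3.50% in knockout cells, against 8.10% and 7.82% in the other cells, and *Rpl32* 0.989% and 0.718%, against 1.89% and 2.06%. *Rpl5* and *Rpl12* stood the other way, *Rpl5* at 1.29% and 1.63% against 0.492% and 0.492% and *Rpl12* at 1.90% and 1.26% against 0.675% and 0.725%. *Rpl7l1* stood the other way too, at 0.608% and 0.664% against 0.295% and 0.280%, with 8 and 37 UMIs. *Rpl30* made up 3.12% and 3.84%, against 2.42% and 1.97%. In all cells of 500 to 2000 UMIs, which hold most of these cells, *Rplp1* was likewise low, at 6.46% of the member UMIs in wild-type and 5.78% in knockout cells, and *Rpl5* (1.30% and 1.34%), *Rpl12* (1.49% and 1.27%), *Rpl7l1* (0.355% and 0.361%) and *Rpl30* (2.91% and 2.45%) were likewise high, while *Rpl32* was at 2.22% and 1.83%. In the cells under 5%, *Rpl4* made up 3.35% of member UMIs in wild-type and 2.62% in knockout cells, against 3.24% and 2.63% in the others. In all cells of 500 to 2000 UMIs it was at 2.71% and 2.41%.

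Features of the genes that the selection did not use separated the ratios little. The 20 members with a snoRNA in their introns had a median ratio of 1.10, against 1.07 for the 33 without. By count the order turned, with 14 of the 20 and 28 of the 33 above 1, against 52.3% of all genes. Both *Rpl10* and *Rpl4*, near the ends of the range, host a snoRNA. The 7 members with the tract at the annotated start, whose windows are printed above, were all above a ratio of 1, from *Rpl15* at 1.02 to *Rpl35* at 1.24, with a median of 1.07, against 1.05 for the 33 other members with a window and at least 200 UMIs, 24 of which were above 1.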

How the data were processed

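There was 1 inDrop library per genotype. The authors followed a published pipeline for inDrop reads and deposited its output as counts of UMIs for each gene and barcode, with no normalization and with shallow barcodes included. The submitters' processing notes name mm10 and Seurat 2.3.4. The aligner, annotation and handling of multiply mapped reads are not given in the sources used here. UMIs marked as ambiguous numbered 63462 in wild-type and 58924 in knockout barcodes. Of the identifiers, 54079 matched GENCODE M21 of GRCm38 without their version.

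Groups came from the labels. As in the study's methods, barcodes under 500 UMIs or above a mitochondrial share of 0.2 were dropped, leaving 11639256 wild-type and 9340855 knockout UMIs. Doublets were not removed, and no cell types were clustered. CPM had exact Poisson intervals, shares of a pair exact binomial (Clopper-Pearson) intervals and ratios exact conditional binomial intervals, all at 95%. Ratios over all genes had 0.5 added to each count. The expected number of cells without a UMI assumed that a gene takes the same share of member UMIs in every cell of the band. Start windows came from RefSeq, and 13 members had none. The calculation was tested on simulated data.

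Members, lists and limits were chosen with earlier results of these data known. Named are the 5 members with the highest wild-type CPM, the 5 largest and 5 smallest ratios, the 5 with the largest spread over cells by the smaller value of the libraries, paralogs and their partners, and members of role lists, with others named where they carry a count. The near copies, the counts of cells without a UMI, the pair shares and the sums without *Rpl6l* or without collagens were added after seeing the data. Alternatives were other limits for cells, denominators, scalings, cell subsets, folds and copies added. Scripts ran in Python 3.11.15 with pandas 2.3.3, numpy 2.4.6, matplotlib 3.10.9 and scipy 1.17.1.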

Additional observations from a re-analysis of the deposited data

How the results depend on the processing

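The ratio of the summed large subunit share, 1.09 as reported, was 1.07 with no minimum of UMIs, 1.09 with mitochondrial genes left out of the denominator, 1.05 with median of ratios scaling, 1.08 without collagen-rich cells, 1.11 without cells under 5% ribosomal protein UMIs, 1.18 in cells of 5000 to 10000 UMIs, 1.07 as a mean over cells, 1.11 with -ps rows added and 1.13 with near copies added, the last chosen after seeing the data. Members above a ratio of 1 numbered 42 as reported and 38 to 46 under these settings. They were counted over members with at least 200 UMIs in the cells used, of which there were 52 in cells of 5000 to 10000 UMIs. Of all genes tested, 52.3% were above 1 as reported and 48.9% in cells of 5000 to 10000 UMIs. Past a fold of 1.5 there was 1 higher member as reported, 2 in cells of 5000 to 10000 UMIs, 6 at a fold of 5/4 and 0 at a fold of 2. Of all genes, 6.49% were higher past 1.5 as reported and 19.7% past 5/4. The shares for cells of 5000 to 10000 UMIs and for a fold of 2 are not given. Members at least 5/4-fold from the summed members, a count not given above, numbered 3 with the main settings. There were 8 in cells of 5000 to 10000 UMIs, 9 as a mean over cells and 5 with -ps rows added. With no share of all genes beside them, they show only how the count moved with the setting. With a collagen limit of 1%, 3 members were at least 1.5-fold lower in collagen-rich knockout cells in place of 6. The 6 were among 41 members, against 46.5% of 318 genes. At the limit of 1% the number of members tested and the share of all genes are not given, so the counts cannot be compared. Of the 36 named members, 7 had ratios on both sides of 1 over these settings (*Rpl23*, *Rpl30*, *Rpl36a*, *Rpl37*, *Rpl39l*, *Rpl6* and *Rplp1*). With the ratios in all 4 bands of depth included, an alternative chosen after seeing the data, there were 22. In cells above 10000 UMIs, 10 of the 36 and 18 of the 53 members lay on the other side of 1 than over all cells. No share of all genes that changed side is given, so these counts cannot be read as particular to the members. *Rpl41* ranged from 1.52 to 1.81 over the settings but was at 1.245 above 10000 UMIs, under the fold of 1.5, and *Rpl4* ranged from 0.834 to 0.909 and was at 0.961 in cells of 500 to 2000 UMIs. The cause of these shifts was not tested. No paired analysis was possible because each genotype had 1 library, and for the same reason no replicate could be left out. Depth limits *Rpl3l* and *Rpl39l* and the collagen-rich and shallow cells, where single members rest on few UMIs.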
